A study of Mus musculus with 18 samples.

Results

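The TNF receptor superfamily genes *Tnfrsf4*, *Tnfrsf9*, *Tnfrsf18*, *Tnfrsf1a*, *Tnfrsf1b*, *Tnfrsf8*, *Tnfrsf25*, *Cd27*, *Fas* and *Tnfrsf26* were followed in RNA-seq gene counts of purified regulatory T cells (Tregs). The genes were chosen by name, with earlier results of these data known, and all 10 were found among the 50600 genes of the count table. The 18 C57BL/6 mice form 4 groups by tissue and by CD25, the α-chain of the IL-2 receptor, which is encoded by *Il2ra*. Thymic Tregs at 3–4 weeks of age came from 5 Foxp3/RFP reporter mice (WT) and from 5 Treg-targeted CD25 conditional knockout mice (CD25 KO), whose Cre is driven by the *Foxp3* locus. The thymic CD25 KO mice had received WT splenocytes as newborns, a transfer from congenic donors that prevents their autoimmunity, and the sorted cells are described as CD25-deficient Tregs. Their controls carry another *Foxp3* reporter allele. In the splenic CD25 KO group, 4 mice of 7–10 weeks of age carried the CD25 flox allele, an inducible Foxp3eGFP-Cre-ERT2 and the YFP reporter R26Y, and tamoxifen had been given 10–14 days before. The splenic WT group was 4 reporter controls of the same ages and times. Tissue, mouse model, age and the date in the column headers changed together, so a difference between thymic and splenic samples cannot be told apart from a difference between the models. Each library is 1 mouse.

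Members of this family are surface receptors that are engaged by trimeric ligands of the TNF superfamily. Costimulatory members such as OX40 (*Tnfrsf4*), GITR (*Tnfrsf18*) and TNFR2 (*Tnfrsf1b*) recruit TRAF adaptors and activate NF-kB, while members with a death domain, such as Fas, can assemble caspase-8. Tregs carry high levels of several of the costimulatory receptors, and in the thymus these receptors are known to raise the sensitivity of Treg progenitors to IL-2.

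In the mouse genome (GRCm38), 6 of the genes lie on chromosome 4. *Tnfrsf4* (chr4:156013843-156016612, + strand) ends 9551 bases before *Tnfrsf18* (chr4:156026164-156028895, + strand), with 2 annotated genes between them. *Tnfrsf1b* (chr4:145213463-145246870) and *Tnfrsf8* (chr4:145267137-145315164) are neighbours on the - strand, 20266 bases apart. *Tnfrsf9* (chr4:150914562-150946102) and *Tnfrsf25* (chr4:152115934-152120119) lie on the + strand. *Cd27* (chr6:125232622-125237010, - strand) and *Tnfrsf1a* (chr6:125349362-125362484, + strand) share chromosome 6, and *Fas* (chr19:34290666-34327772, + strand) and *Tnfrsf26* (chr7:143607659-143628722, - strand) lie alone. The antisense gene *Gm16008* overlaps 414 exonic bases of *Tnfrsf18*, the opposite-strand gene *E230032D23Rik* overlaps 107 exonic bases of *Tnfrsf26*, and the sources used here do not say whether reads were counted by strand. Apart from 55 stretches of 75 bases that *Cd27* shares with the microRNA gene *Mir8113* inside it, no run of 75 bases in a transcript of these genes occurred in a transcript of another gene.

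RefSeq promoter windows (GRCm38.p6, 250 bases before to 50 bases after a transcript start) were found for 9 of the 10 genes, as 11 windows. The windows of *Tnfrsf4*, *Tnfrsf18* and *Tnfrsf25* are printed because these are the genes that passed the test of CD25 KO against WT within a tissue, and the second window of *Tnfrsf9* is printed for its NF-kB match. Capitals mark matches, on either strand, to the STAT site TTCNNNGAA, the NF-kB consensus, the GC box GGGCGG and the TATA box TATAAA. The windows are, in order, chr4:156013445-156013744, chr4:156026072-156026371, chr4:152115684-152115983, chr4:152116093-152116392 and chr4:150927749-150928048, all on the + strand.
*Tnfrsf4*: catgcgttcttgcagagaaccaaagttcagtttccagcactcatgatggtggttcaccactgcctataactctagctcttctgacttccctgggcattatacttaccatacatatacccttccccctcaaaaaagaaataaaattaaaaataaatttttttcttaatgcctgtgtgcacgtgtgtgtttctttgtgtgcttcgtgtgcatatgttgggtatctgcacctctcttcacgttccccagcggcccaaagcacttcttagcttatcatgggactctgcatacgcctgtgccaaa
*Tnfrsf18*: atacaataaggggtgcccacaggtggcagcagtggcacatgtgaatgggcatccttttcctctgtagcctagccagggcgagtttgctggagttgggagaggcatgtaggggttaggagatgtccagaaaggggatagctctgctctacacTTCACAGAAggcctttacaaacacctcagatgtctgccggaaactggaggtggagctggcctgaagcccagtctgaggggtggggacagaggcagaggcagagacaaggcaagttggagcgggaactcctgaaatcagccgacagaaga
*Tnfrsf25*, first window: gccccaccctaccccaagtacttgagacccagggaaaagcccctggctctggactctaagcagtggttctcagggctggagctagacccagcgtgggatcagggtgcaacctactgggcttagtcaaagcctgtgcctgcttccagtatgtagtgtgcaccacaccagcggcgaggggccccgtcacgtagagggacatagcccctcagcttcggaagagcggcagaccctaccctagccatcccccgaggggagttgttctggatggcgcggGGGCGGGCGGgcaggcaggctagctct
*Tnfrsf25*, second window: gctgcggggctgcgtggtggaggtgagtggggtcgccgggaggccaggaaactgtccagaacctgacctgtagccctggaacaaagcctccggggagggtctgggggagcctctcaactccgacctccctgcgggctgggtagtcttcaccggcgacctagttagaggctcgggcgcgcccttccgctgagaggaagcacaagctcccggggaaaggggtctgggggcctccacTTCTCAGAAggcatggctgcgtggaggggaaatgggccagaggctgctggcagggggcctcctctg
*Tnfrsf9*, second window: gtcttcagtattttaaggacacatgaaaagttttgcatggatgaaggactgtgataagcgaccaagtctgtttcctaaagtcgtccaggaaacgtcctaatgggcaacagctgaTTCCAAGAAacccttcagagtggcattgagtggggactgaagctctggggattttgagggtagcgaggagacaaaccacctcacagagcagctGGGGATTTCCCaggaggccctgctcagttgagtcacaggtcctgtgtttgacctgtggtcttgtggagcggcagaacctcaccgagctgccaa

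The STAT site was found in 6 of the 11 windows, each from a different gene, while 8.3% of all 32851 promoter windows hold it. Positions are counted from the transcript start. The matches were TTCACAGAA at -99 in *Tnfrsf18*, TTCCAAGAA at -136 in the second window of *Tnfrsf9*, TTCCGTGAA at -244 in *Tnfrsf1a*, TTCCCGGAA at -181 in *Tnfrsf1b*, TTCTCAGAA at -16 in the second window of *Tnfrsf25* and TTCTGGGAA at -93 in *Fas*. The NF-kB consensus was found in 2 windows, against 4.51% of all windows. These were the overlapping matches around GGGATTTCCC at -42 in *Tnfrsf9* and GGGGAGCCCC at -168 in *Tnfrsf8*. The GC box was in 5 windows, against 35.7% of all, and the TATA box in 0, against 13.6%. The *Tnfrsf4* window held none of these letters, and a match is not evidence of binding.

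Depth ranged from 17239774 to 23993674 counts per library in the thymus and from 25258341 to 32639570 in the spleen, and levels are given as CPM, each count divided by its library size after TMM scaling. The targeted gene *Il2ra* had 524 to 682 CPM in thymic WT and 95.8 to 280 CPM in thymic CD25 KO Tregs, and 488 to 538 CPM against 168 to 208 CPM in the spleen. Only exon 4 is removed by the Cre, so reads from the rest of the transcript can still be counted. The paper illustrates the missing exon 4 for peripheral Tregs. Gene counts do not resolve exons, so how much of the remaining *Il2ra* lacks exon 4 was not tested. Mice 2 and 4 of the thymic CD25 KO group had the highest *Il2ra* of that group, at 280 and 234 CPM, and the other 3 had 95.8 to 105 CPM. The reads of *Xist* and *Ddx3y* put 3 of 5 thymic WT and 4 of 5 thymic CD25 KO mice as male and all 8 splenic mice as female. Sex thus also differed between the tissues. *Foxp3*, *Ikzf2* and *Ctla4*, which mark Tregs, and the T cell genes *Cd4* and *Cd3e* were present in all 18 libraries. *Foxp3* was lower in CD25 KO Tregs, at 399 to 577 CPM in WT and 270 to 335 CPM in CD25 KO mice in the thymus (log2 fold change -0.74, adjusted p = 0.00101) and at 322 to 345 CPM and 204 to 239 CPM in the spleen (-0.55, adjusted p = 6.9e-06), with no overlap. Of these 5 genes 2 were called lower in the thymus, and 1 lower and 3 higher in the spleen. Summed B cell markers reached at most 49.3 CPM, myeloid markers 49.9 CPM and markers of double-positive thymocytes 198 CPM in a library. The part of these genes in the members' values was not tested. Thymic CD25 KO mouse 5 was the highest or lowest of its group for all 10 members.

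Levels of different genes are compared per kilobase of exon. In thymic WT Tregs *Tnfrsf4* was the most abundant member at 183 ± 23.2 CPM per kb (SD, n = 5), followed by *Tnfrsf18* (99.7 ± 12.0 CPM per kb) and *Cd27* (96.0 ± 5.40 CPM per kb), whose ranges over mice overlapped. *Tnfrsf1b* (73.2 ± 6.88 CPM per kb) and *Tnfrsf9* (70.6 ± 6.84 CPM per kb) did not differ beyond their spread either, nor did *Tnfrsf25* (35.2 ± 3.04 CPM per kb) and *Fas* (29.6 ± 1.80 CPM per kb) in their ranges. *Tnfrsf1a* (12.8 ± 1.62 CPM per kb), *Tnfrsf26* (7.68 ± 0.496 CPM per kb) and *Tnfrsf8* (0.953 ± 0.138 CPM per kb) followed with no overlap. In splenic WT Tregs *Cd27* (109 ± 6.92 CPM per kb, n = 4) and *Tnfrsf4* (107 ± 7.38 CPM per kb) led, then *Tnfrsf1b* (90.9 ± 6.90 CPM per kb), and their ranges overlapped in sequence. *Tnfrsf8*, which encodes CD30, was lowest in each of the 4 groups, but every member exceeded 3 counts in every library. The lowest member level in a library was 0.787 CPM, for *Tnfrsf8*, where 3 counts equal at most 0.163 CPM.

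**Figure D1:**
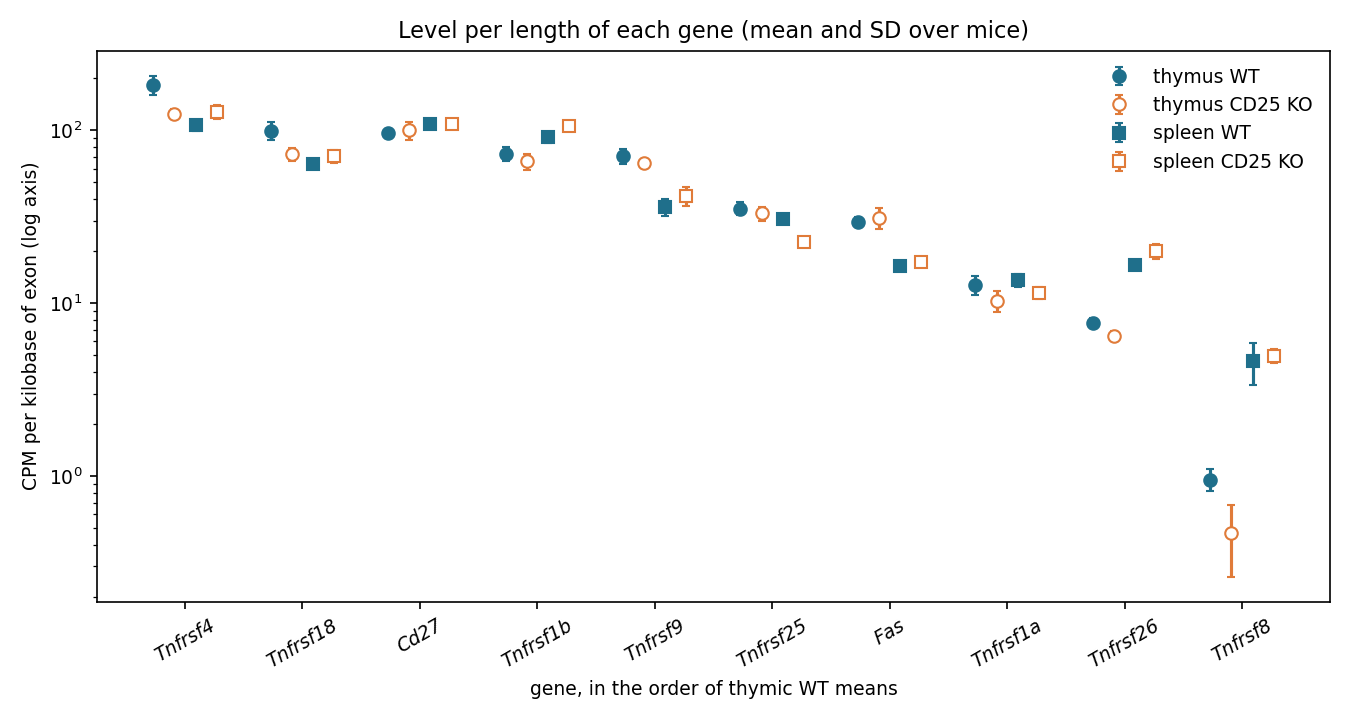
Level of each gene in CPM per kilobase of exon on a log axis, in the order of thymic WT means; points are group means and bars the SD over 5 thymic or 4 splenic mice. *Tnfrsf4* stands highest in thymic WT Tregs at 183 CPM per kb and *Tnfrsf8* lowest in every group.

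WT Tregs of the spleen and the thymus differed in most members. *Tnfrsf8* was 4.84-fold and *Tnfrsf26* 2.15-fold higher in the spleen, *Tnfrsf1b* was 1.24-fold higher, and *Tnfrsf9*, *Fas*, *Tnfrsf4* and *Tnfrsf18* were lower. Thus 4 of 10 members were called lower and 3 higher in splenic WT Tregs at an adjusted p below 0.01 (quasi-likelihood test of edgeR, Benjamini-Hochberg adjustment over all genes), where 19.5% of all genes tested were called lower and 21% higher. Groups did not overlap for 7 of the 10 members, beside 46% of all genes. Sex differed between these groups too, with 3 males in thymic WT and 0 in splenic WT. With sex as a covariate, a fit added after the data were seen, the same 7 members were called.

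*Tnfrsf8* had 2.51 to 3.78 CPM in the 5 thymic WT mice and 12.0, 14.7, 14.9 and 22.3 CPM in the 4 splenic WT mice. All splenic values were above all thymic values, by 2.28 ± 0.21 on the log2 scale (SE, adjusted p = 1.88e-08). *Tnfrsf26*, a receptor of the cluster that also holds *Tnfrsf22* and *Tnfrsf23*, had 22.9 to 27.0 CPM in the thymus and 48.4 to 55.8 CPM in the spleen (log2 difference 1.11 ± 0.07, adjusted p = 1.03e-10). *Tnfrsf9*, which encodes the costimulatory receptor 4-1BB, ran the other way, at 165 to 207 CPM in the thymus and 81.2 to 105 CPM in the spleen (-0.98 ± 0.09, adjusted p = 1.57e-08). *Fas*, the death receptor for FasL, had 55.1 to 64.8 CPM in the thymus and 31.96 to 36.7 CPM in the spleen (-0.85 ± 0.08, adjusted p = 3.37e-08). For both genes no splenic mouse reached the lowest thymic mouse. The log2 differences of *Tnfrsf4* (-0.78 ± 0.08, adjusted p = 1.84e-07) and *Tnfrsf18* (-0.64 ± 0.08, adjusted p = 1.73e-06) were also negative, with no overlap of the groups. *Tnfrsf1b* was at 236 to 302 CPM in the thymus and 320 to 383 CPM in the spleen (0.31 ± 0.08, adjusted p = 0.00272), a call that was lost without thymic WT mouse 3 or 5 or splenic WT mouse 1. The other members did not pass, with log2 differences of -0.19 for *Tnfrsf25* (95% interval -0.34 to -0.05, adjusted p = 0.0271), 0.18 for *Cd27* (0.03 to 0.33, adjusted p = 0.0376) and 0.09 for *Tnfrsf1a* (-0.12 to 0.30, adjusted p = 0.496). *Tnfrsf25* passed after GC correction (-0.24, adjusted p = 0.000927) or without thymic WT mouse 3 (adjusted p = 0.00306) or thymic CD25 KO mouse 3 (adjusted p = 0.00834). That WT mouse had the lowest *Tnfrsf25* of its group, so a larger difference was fixed by its removal. Leaving out thymic CD25 KO mouse 5 let *Tnfrsf25* (adjusted p = 0.00992) and *Cd27* (adjusted p = 0.00717) pass. The CD25 KO mice are in neither WT group, but they enter the scaling and the estimate of the spread. Without CD25 KO mouse 3 the log2 difference of *Tnfrsf25* moved to -0.22, and without CD25 KO mouse 5 it stayed at -0.19.

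**Figure D2:**
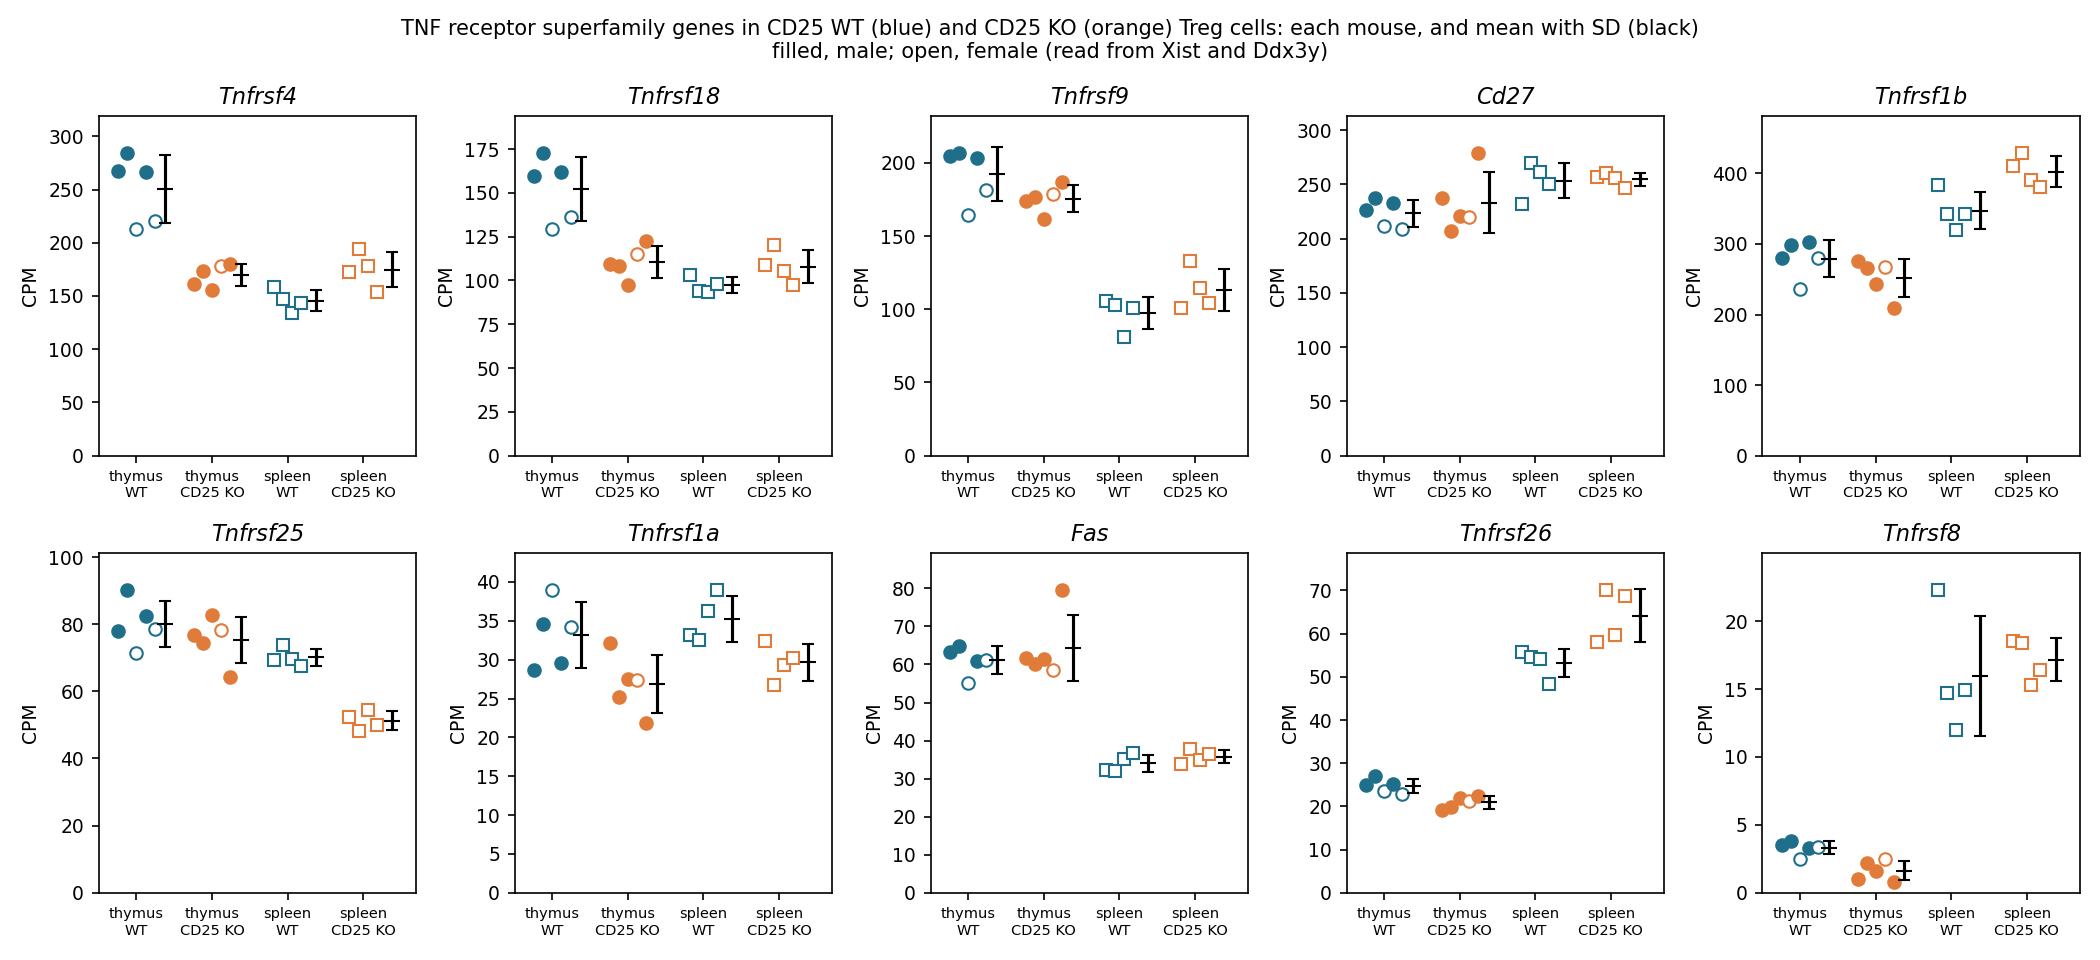
CPM of each of the 10 genes in every mouse, by tissue and genotype; the y axis is linear and starts at 0, blue is WT and orange CD25 KO, filled points are males and open points females, and black marks show the mean and SD. The thymic genotypes do not overlap for 4 members (*Tnfrsf4*, *Tnfrsf18*, *Tnfrsf8* and *Tnfrsf26*), beside 16.4% of all genes. The splenic genotypes do not overlap for 3 (*Tnfrsf25*, *Tnfrsf26* and *Tnfrsf1a*), beside 20.4%. The WT groups of the tissues do not overlap for 7, beside 46%.

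The comparison of CD25 KO with WT thymic Tregs asks which receptors change in Tregs that lose CD25 while they develop. The *Foxp3* allele, the Cre and the splenocyte transfer, which is described for the CD25 KO mice only, changed together with CD25 here. Their effects cannot be told apart from that of CD25. *Tnfrsf4* was 31.5% and *Tnfrsf18* 26.4% lower in thymic CD25 KO Tregs, and no member was called higher. Thus 2 of 10 members were called lower, where 2.99% of the 16986 genes tested were, and 0 higher, where 3.17% were. By sign, 8 of the 10 log2 fold changes were negative, with a median of -0.18 beside -0.002 for all genes tested. At an unadjusted p under 0.05 there were 5 of 10 members, beside 37.9% of all genes. DESeq2 called 3 lower, adding *Tnfrsf8*, beside 7.2% of the genes to which it gave an adjusted p. Groups did not overlap for 4 members, beside 16.4% of all genes.

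The values of *Tnfrsf4* in thymic WT mice 1 to 5 were 268, 285, 213, 266 and 220 CPM, and in CD25 KO mice 162, 173, 155, 178 and 180 CPM. The groups did not overlap, and the 2 lowest WT mice, 3 and 5, were the females of the group. The log2 fold change was -0.55 ± 0.08 (SE, adjusted p = 0.00216). With sex as a covariate, a fit added after the data were seen, it was -0.57 (adjusted p = 0.00197), and without CD25 KO mouse 5 it was -0.57 (adjusted p = 0.00259).

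*Tnfrsf18* followed *Tnfrsf4* from mouse to mouse. Its WT values were 159, 173, 130, 162 and 136 CPM and its CD25 KO values 110, 108, 97.6, 115 and 122 CPM, again without overlap and again with the female WT mice lowest. The log2 fold change was -0.44 ± 0.08 (adjusted p = 0.00538), and without CD25 KO mouse 5 it was -0.48 (adjusted p = 0.00446). The overlapping antisense gene *Gm16008* was 14.7 to 21.01 CPM in WT and 11.01 to 14.2 CPM in CD25 KO thymic Tregs (log2 fold change -0.43, adjusted p = 0.0188). In the spleen its log2 fold change was -0.22 (adjusted p = 0.178), while that of *Tnfrsf18* was 0.15. Reads from the exonic bases that both genes share cannot be told apart without the strand setting. Their part in the *Tnfrsf18* values was not tested.

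Both calls were lost when the trend of counts with GC content was removed from each library: *Tnfrsf4* was then at -0.40 (adjusted p = 0.0149) and *Tnfrsf18* at -0.28 (adjusted p = 0.0676), still below 0. Over 16945 genes, thymic fold change and GC content had a Spearman correlation of -0.40, across genes that are not independent, and 7 of the 10 members lie above the median GC content of 49.0%. The call of *Tnfrsf18* was also lost without any 1 of WT mice 1, 2 and 4 or CD25 KO mice 1, 2 and 3, where its adjusted p reached at most 0.0174 and its log2 fold change stayed between -0.49 and -0.39.

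*Tnfrsf8* had the largest fold change of the members in the thymus but at low counts. It had 3.54, 3.78, 2.51, 3.29 and 3.37 CPM in WT and 1.05, 2.17, 1.63, 2.48 and 0.787 CPM in CD25 KO mice, from 15 to 89 counts per library. The groups did not overlap, yet at -0.99 ± 0.27 the adjusted p was 0.0214, short of the threshold. The highest CD25 KO values were those of mice 4 and 2, which also kept the most *Il2ra*, and the lowest was that of mouse 5, without which the log2 fold change was -0.82 (adjusted p = 0.0287). It passed with DESeq2 (-0.99, adjusted p = 0.00248) and with 1 fit for all 18 samples (adjusted p = 0.00408).

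*Tnfrsf26* had 22.9 to 27.0 CPM in WT and 19.1 to 22.4 CPM in CD25 KO thymic Tregs, without overlap (log2 fold change -0.23 ± 0.07, adjusted p = 0.0386). After GC correction it passed, at -0.33 (adjusted p = 0.00957). *Tnfrsf1a*, the TNF receptor with a death domain, had 28.7 to 38.998 CPM against 21.9 to 32.1 CPM, with overlap (-0.29 ± 0.10, adjusted p = 0.0617). The remaining members had log2 fold changes of -0.13 for *Tnfrsf1b* (95% interval -0.31 to 0.05), -0.11 for *Tnfrsf9* (-0.26 to 0.04), -0.07 for *Tnfrsf25* (-0.23 to 0.09), 0.08 for *Cd27* (-0.09 to 0.24) and 0.09 for *Fas* (-0.09 to 0.27). CD25 KO mouse 5 had the highest value of its group for 6 members, the called *Tnfrsf4* and *Tnfrsf18* among them as well as *Cd27* (279 CPM) and *Fas* (79.6 CPM), and the lowest for 4, *Tnfrsf1b* (209 CPM), *Tnfrsf25* (64.3 CPM), *Tnfrsf1a* (21.9 CPM) and *Tnfrsf8* (0.787 CPM).

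**Figure D3:**
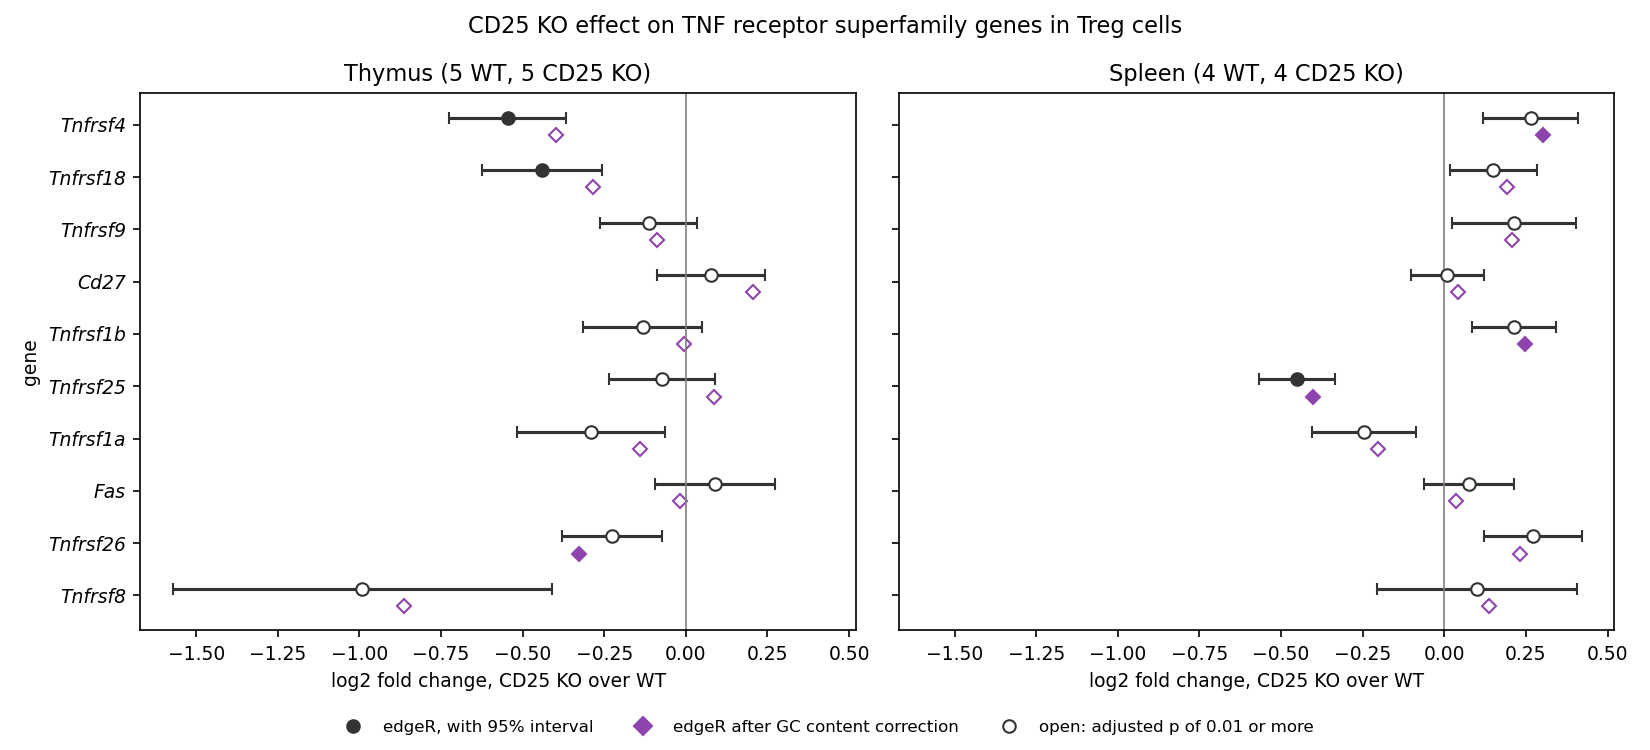
Log2 fold change of CD25 KO over WT for each gene in the thymus (left) and the spleen (right), as black circles with 95% intervals and, after GC content correction, as purple diamonds; filled symbols have an adjusted p below 0.01. The thymic *Tnfrsf4* and *Tnfrsf18* symbols open after the correction, and splenic *Tnfrsf25* stays filled at -0.40.

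Effector Treg markers were lower in the same thymic CD25 KO samples: 6 of the 8 tested were called lower, and their summed level was 254 to 291 CPM in WT and 150 to 238 CPM in CD25 KO mice. Several of these genes were picked by the study on these samples, so the list is not independent evidence. Of the 6 central Treg markers 0 were called by edgeR and 1 had an adjusted p under 0.05. Their sums were 2840 to 3212 CPM in WT and 2718 to 2975 CPM in CD25 KO mice. The 8 cell-cycle genes summed to 488 to 1179 CPM in WT and 155 to 1006 CPM in CD25 KO mice, with 0 called by edgeR and 0 at an adjusted p under 0.05. The part of any of these lists in the members' values was not tested. In bulk samples, fewer cells of a type and less RNA per cell cannot be told apart.

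The splenic comparison asks the same of mature Tregs that lost CD25 after leaving the thymus. *Tnfrsf25*, which encodes DR3, the receptor of TL1A, was 26.8% lower in CD25 KO Tregs, and it was the only member called. Thus 1 of 10 members was called lower, where 3.55% of the 17463 genes tested were, and 0 higher, where 5.9% were. By sign, 8 of the 10 log2 fold changes were positive, with a median of 0.13 beside -0.006 for all genes. At an unadjusted p under 0.05 there were 7 of 10 members, beside 29.9% of all genes. DESeq2 called *Tnfrsf25* lower, beside 4.23% of the genes to which it gave an adjusted p, and 3 members higher (*Tnfrsf4*, *Tnfrsf26* and *Tnfrsf1b*), beside 6.73%. With no low-count filter edgeR called the same 4 members. Groups did not overlap for 3 members, beside 20.4% of all genes. Without WT mouse 1, *Tnfrsf4* and *Tnfrsf1b* were also called by edgeR, without CD25 KO mouse 1 or 3 *Tnfrsf26* was, and without CD25 KO mouse 4 *Tnfrsf4* was. For the gene called, each mouse left out lay nearer to the other genotype than its group mean. A larger fold change was thus fixed by each removal.

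*Tnfrsf25* had 69.3, 73.8, 69.8 and 67.6 CPM in WT and 52.5, 48.2, 54.5 and 49.8 CPM in CD25 KO mice. The highest CD25 KO value, 54.5 CPM, was below the lowest WT value, 67.6 CPM. The log2 fold change was -0.45 ± 0.06 (adjusted p = 4.08e-05), and it remained called in all 16 alternative settings run, between -0.48 and -0.40.

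*Tnfrsf4* had 158, 147, 134 and 144 CPM in WT and 173, 194, 178 and 154 CPM in CD25 KO mice, so that 1 CD25 KO mouse fell within the WT range. Its log2 fold change was 0.26 ± 0.07 (adjusted p = 0.0137) and did not pass with edgeR. It passed with DESeq2 (adjusted p = 0.00472) and after GC correction (0.30, adjusted p = 0.00415). *Tnfrsf18* had 93.4 to 103 CPM in WT and 97.4 to 120 CPM in CD25 KO mice (0.15 ± 0.06, adjusted p = 0.119).

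*Tnfrsf26* had 55.8, 54.5, 54.2 and 48.4 CPM in WT and 58.0, 70.2, 59.8 and 68.7 CPM in CD25 KO mice, without overlap (0.27 ± 0.07, adjusted p = 0.0136). It passed with DESeq2 (adjusted p = 0.00578) but not after GC correction (0.23, adjusted p = 0.0164). The TNF receptors split by sign. *Tnfrsf1b*, whose product TNFR2 is abundant on Tregs, had 320 to 383 CPM in WT and 380 to 429 CPM in CD25 KO mice (0.21 ± 0.06, adjusted p = 0.0227), with DESeq2 at an adjusted p of 0.00801. *Tnfrsf1a* had 32.6 to 38.995 CPM in WT and 26.7 to 32.4 CPM in CD25 KO mice, without overlap but short of the threshold (-0.25 ± 0.07, adjusted p = 0.032).

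*Tnfrsf9* had a log2 fold change of 0.21 (95% interval 0.02 to 0.40, adjusted p = 0.118), and *Tnfrsf8* one of 0.10 (-0.21 to 0.41). *Cd27* (0.01, -0.10 to 0.12) and *Fas* (0.08, -0.06 to 0.21) were nearest to 0. *Cd27* was at 232 to 269 CPM in WT and 246 to 260 CPM in CD25 KO mice.

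In the same splenic samples all 9 effector Treg markers were called higher, with a sum of 482 to 553 CPM in WT and 849 to 970 CPM in CD25 KO mice. Of the 6 central Treg markers 4 were called lower and 1 higher, and all 8 cell-cycle genes were called higher (sums of 152 to 171 CPM and 265 to 364 CPM). Here too the lists hold genes that the study picked on these samples. Summed B cell markers were 30.02 to 36.4 CPM in WT and 39.05 to 49.3 CPM in CD25 KO mice, and myeloid markers 36.6 to 41.4 CPM and 47.3 to 49.9 CPM. Their part in the members' values was not tested.

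The effect of CD25 KO differed between the tissues for 3 members, *Tnfrsf4*, *Tnfrsf18* and *Tnfrsf26*, all with the splenic effect above the thymic one. Thus 3 of 10 members were called in the test of the difference itself, where 6.98% of the 18686 genes tested were called in either direction. DESeq2 called 5 of 10, adding *Tnfrsf25* and *Tnfrsf8*, beside 12.7% of its genes. The splenic minus the thymic log2 fold change was 0.83 ± 0.12 for *Tnfrsf4* (adjusted p = 0.000112), and it was called in all 27 alternative settings (0.72 to 0.88). It was 0.61 ± 0.12 for *Tnfrsf18* (adjusted p = 0.00143), where GC correction gave 0.50 and an adjusted p of 0.0105. It was 0.51 ± 0.10 for *Tnfrsf26* (adjusted p = 0.00222), called in all 27 alternatives (0.43 to 0.58). In the fold changes within each tissue, these 3 genes were lower in thymic and higher in splenic CD25 KO Tregs in sign, while only the thymic *Tnfrsf4* and *Tnfrsf18* changes passed.

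The difference did not pass for *Tnfrsf25* (-0.36, 95% interval -0.57 to -0.15, adjusted p = 0.0175), although its splenic effect was called and its thymic effect was not. With DESeq2 it was -0.35 (adjusted p = 0.00632), and after GC correction -0.47 (adjusted p = 0.000372). It also passed with upper-quartile scaling (-0.44, adjusted p = 0.00656) and without thymic WT mouse 2 (adjusted p = 0.00822) or thymic CD25 KO mouse 5 (adjusted p = 0.00303). For *Tnfrsf25*, that WT mouse was the highest of its group and that CD25 KO mouse the lowest. A larger difference was thus fixed by either removal. *Tnfrsf8* had the largest difference, 1.11 (0.45 to 1.76, adjusted p = 0.0201), and passed with DESeq2 (adjusted p = 0.00277). It also passed without splenic WT mouse 1 (adjusted p = 0.00695) and without thymic CD25 KO mouse 4 (adjusted p = 0.00732). Each of these mice had the most *Tnfrsf8* in its group, so a larger difference was fixed by its removal. Values for the others were 0.36 for *Tnfrsf1b* (0.12 to 0.60), 0.34 for *Tnfrsf9* (0.08 to 0.60), 0.06 for *Tnfrsf1a* (-0.24 to 0.36), -0.05 for *Cd27* (-0.26 to 0.16) and 0.002 for *Fas* (-0.23 to 0.24).

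**Figure D4:**
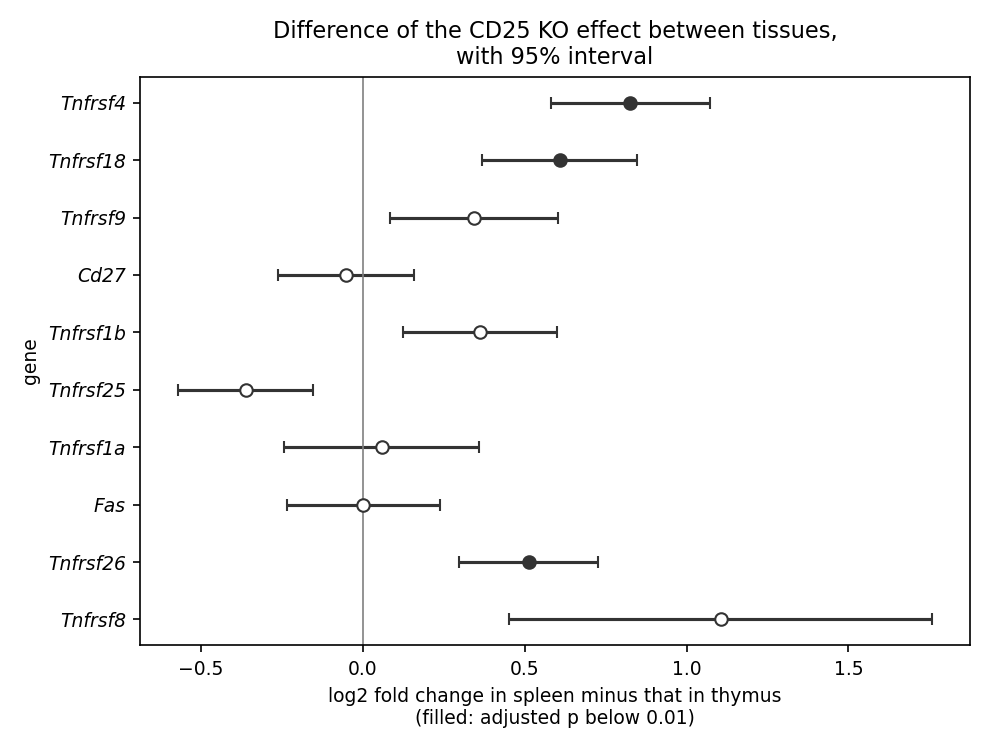
Log2 fold change of CD25 KO over WT in the spleen minus that in the thymus for each gene, with 95% intervals; filled points have an adjusted p below 0.01. *Tnfrsf4*, *Tnfrsf18* and *Tnfrsf26* are filled, at 0.83, 0.61 and 0.51.

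For each member, the gene with the most similar profile was sought among 12935 genes with a mean log2 CPM of at least 1, by Pearson's r over the 18 samples after the mean of each tissue was removed. These values are a description, and the samples share genotype and library. The nearest gene to *Tnfrsf4* was *Tnfrsf18* and the reverse (r = 0.974). The others were *Itgae* for *Tnfrsf8* (0.957), *Ncln* for *Tnfrsf25* (0.926), *Syt11* for *Tnfrsf1b* (0.918), *Ppm1h* for *Tnfrsf1a* (0.904), *Idnk* for *Cd27* (0.902), *Tcp11l2* for *Fas* (0.898), *Mfsd1* for *Tnfrsf26* (0.889) and *Fryl* for *Tnfrsf9* (0.824).

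*Tnf* and *Lta* were called lower in CD25 KO Tregs of both tissues. Of the 9 ligands for these receptors, 6 were tested in the thymus and 2 were called lower, and 7 were tested in the spleen, with 2 called lower and 1 higher. Among all genes tested, 2.99% were called lower and 3.17% higher in the thymus, and 3.55% and 5.9% in the spleen. These shares also stand beside the lists of other receptors, adaptors and NF-kB genes below. *Tnf*, the ligand of *Tnfrsf1a* and *Tnfrsf1b*, fell by 1.29 on the log2 scale in thymic CD25 KO Tregs (14.2 ± 1.88 to 5.72 ± 1.52 CPM, SD, adjusted p = 0.001) and by 0.40 in splenic ones (56.7 ± 2.76 to 42.8 ± 2.58 CPM, adjusted p = 0.00022). *Lta*, which binds the same receptors, fell by 0.66 in the thymus (30.9 ± 3.04 to 19.4 ± 1.86 CPM, adjusted p = 0.00102) and by 1.15 in the spleen (34.7 ± 2.38 to 15.6 ± 0.934 CPM, adjusted p = 1.19e-07). *Tnfsf8*, the ligand of CD30, rose by 0.35 in the spleen (159 ± 2.51 to 202 ± 28.2 CPM, adjusted p = 0.00398). The median log2 fold change of the tested ligands was -0.32 for the thymus and 0.21 for the spleen. The *Tnfsf8* call was lost without WT mouse 2, 3 or 4 (adjusted p up to 0.0168), and with 1 fit for all 18 samples the splenic calls of *Tnfsf8* (adjusted p = 0.0179) and *Tnf* (adjusted p = 0.0428) were lost.

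Among 18 other receptors of the family, 10 were tested in the thymus and 12 in the spleen. In the thymus 1 was called, *Tnfrsf10b*, the receptor of TRAIL, at -0.51 (6.10 ± 0.382 to 4.24 ± 0.366 CPM, adjusted p = 0.00807), a call that was lost in 17 of 23 alternatives, among them leaving out any 1 mouse. In the spleen 1 was called, *Relt*, at -0.47 (35.7 ± 3.12 to 25.7 ± 1.78 CPM, adjusted p = 0.000387).

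Of the 14 adaptors and death proteins, all 14 were tested in the thymus, and 2 were called lower. These were *Ripk1*, the kinase recruited to TNFR1, at -0.48 (51.3 ± 3.99 to 36.3 ± 2.62 CPM, adjusted p = 0.00157), and the ubiquitin ligase *Traf6* at -0.27 (140 ± 3.96 to 115 ± 3.63 CPM, adjusted p = 0.00275), whose call was lost in 6 of 23 alternatives. These were leaving out WT mouse 2 or 5 or CD25 KO mouse 3, the mouse number as a block with and without GC correction, and males only, which also lost *Ripk1* (adjusted p = 0.0334 for each). In the spleen 13 were tested and *Casp8*, the initiator caspase of death receptors, was called lower at -0.28 (175 ± 3.95 to 145 ± 1.85 CPM, adjusted p = 0.000457). *Traf5* is listed at 0 in all 8 splenic libraries, where many genes used by every cell are also listed at 0, and has no splenic value here.

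Of the 14 NF-kB genes, 0 were called by edgeR in the thymus (2 at an adjusted p under 0.05), while in the spleen 3 were called higher and 1 lower. *Tnfaip3*, which encodes the NF-kB inhibitor A20, rose by 0.58 on the log2 scale in splenic CD25 KO Tregs (264 ± 11.8 to 394 ± 64.3 CPM, adjusted p = 0.00032), a call that was lost with 1 fit for all 18 samples (adjusted p = 0.0995). Its thymic value was 1.01 (303 ± 55.5 to 606 ± 198 CPM, adjusted p = 0.0108), short of the threshold with edgeR and past it in 7 of 23 alternatives, among them DESeq2 (adjusted p = 0.0023) and leaving out CD25 KO mouse 5 (1.20, adjusted p = 0.000312). That mouse had the lowest *Tnfaip3* of its group, 273 CPM, within the WT range of 227 to 383 CPM. A larger fold change was thus fixed by its removal. *Nfkb2* and *Relb*, the subunits of the noncanonical pathway, rose by 0.37 (adjusted p = 0.00076) and 0.26 (adjusted p = 0.00995) in the spleen, and the kinase *Ikbkb* fell by 0.35 (adjusted p = 0.000679). The *Relb* call lay just inside the threshold and was lost in 8 of 16 alternatives, 6 of them leaving out 1 mouse (WT 2, 3 or 4 or CD25 KO 1, 2 or 3).

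**Figure D5:**
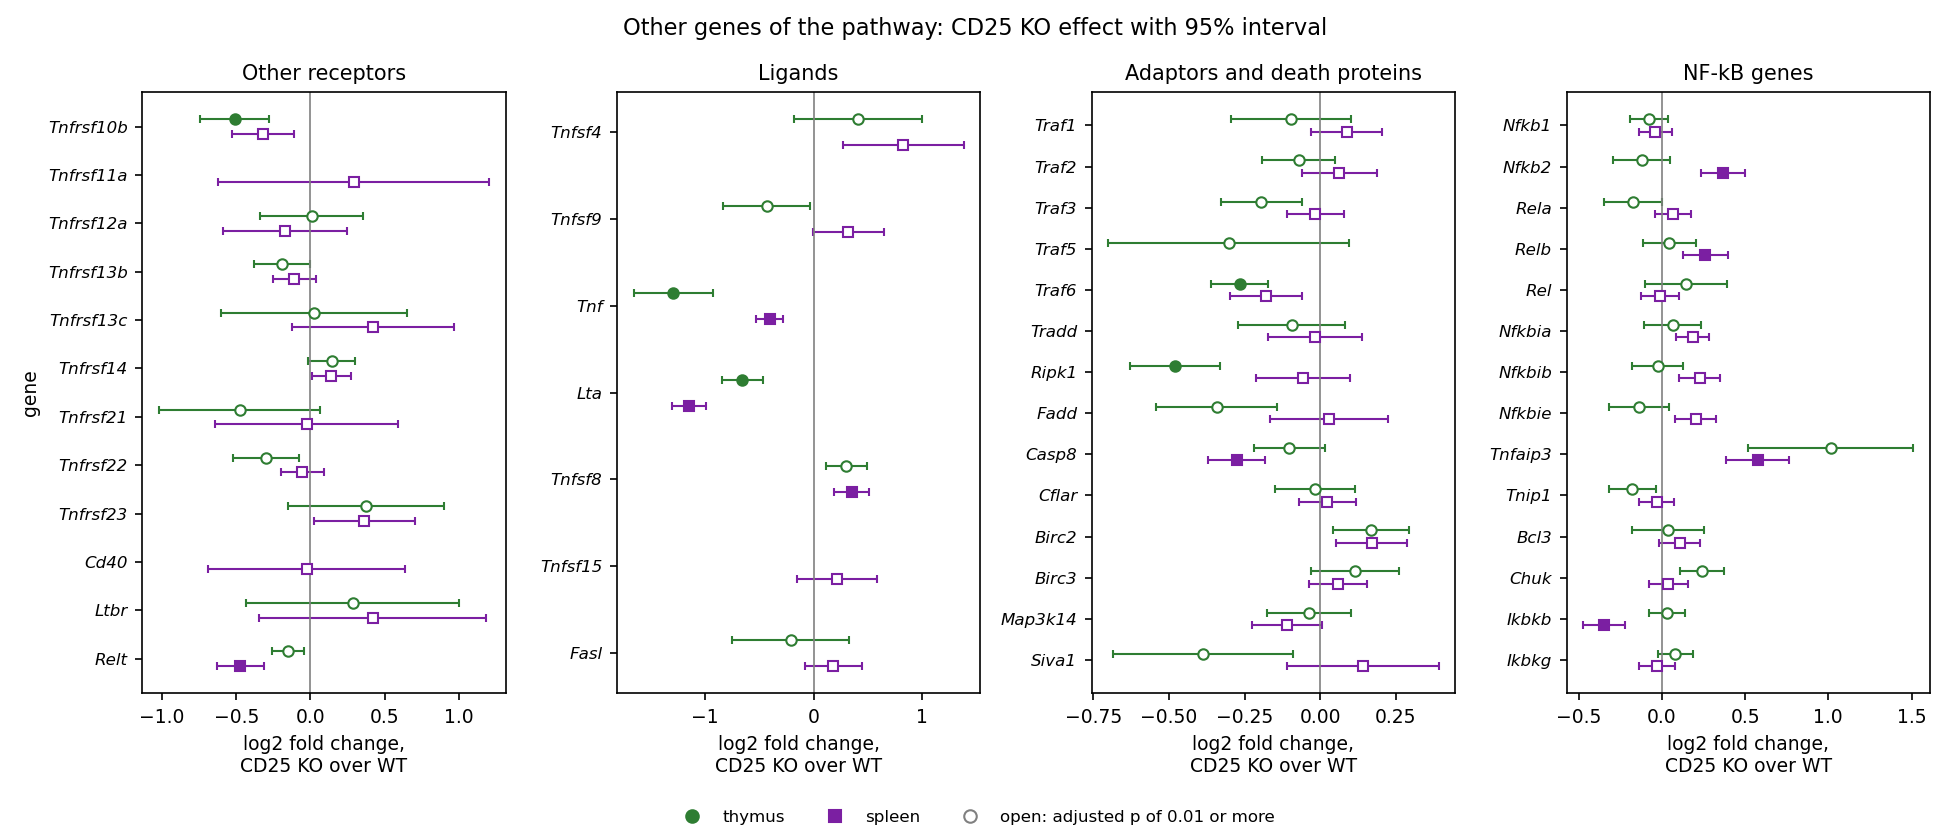
Log2 fold change of CD25 KO over WT, with 95% intervals, for the tested genes of 4 lists: other receptors, ligands, adaptors and death proteins, and NF-kB genes. Green circles are thymus and purple squares spleen; filled symbols have an adjusted p below 0.01, among them *Tnf* and *Lta* in both tissues.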

How the data were processed

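RNA-seq gene counts covered FACS-purified Tregs of 18 mice. Per the submitters' processing notes and the paper's methods, the authors aligned 75-base paired reads to GRCm38 with STAR 2.5.0b, counted them per GENCODE M13 gene with featureCounts 1.5.0, and deposited raw counts without normalization. No column of the table was left out. Symbols, positions and GC content came from GENCODE M21, where 50376 of 50600 identifiers matched. The members and gene lists were chosen with earlier results of these data known.

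Within each tissue, genes were kept by filterByExpr, scaled by TMM and tested with edgeR 4.0.16 (R 4.3.3), quasi-likelihood, calling an adjusted p below 0.01. The tissue difference and the WT comparison used 1 fit of 18 samples. DESeq2 1.42.0, which the study used, was an alternative. All 10 members passed the filter in every comparison. Standard errors came from the fold change and the F statistic. The GC correction fitted a spline with 5 degrees of freedom to each library. The procedure was tested on simulated data. Reads carry no molecular identifiers, so the 3-count floor covers counting error only. Further alternatives were RLE and upper-quartile scaling, no filter, at least 10 counts in every sample, 1 fit for all samples, a threshold of 0.05, the mouse number as a block and leaving out each mouse. Fits with sex, with males only and without the thymic CD25 KO mice 2 and 4 were added after the data were seen. The named genes are all members, up to 3 called genes of the largest fold per list, direction and tissue, and the gene most like each member; *Tnfaip3* in the thymus, *Gm16008*, *E230032D23Rik*, *Foxp3*, *Il2ra*, *Xist*, *Ddx3y* and *Traf5* were named after their values were seen.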

Additional observations from a re-analysis of the deposited data

Results flagged for a closer look

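One library stood apart from its group by Dixon's ratio for *Fas*. Thymic CD25 KO mouse 5 had 79.6 CPM, and the other 4 mice of the group had 58.4 to 61.6 CPM. It was the 1 group of 40 (10 genes in 4 groups) past the critical value, and chance flags about 1 group in 20.

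The effect of CD25 KO differed between spleen and thymus, by edgeR's test of the difference itself, for 3 members and 5 other genes of the pathway. Of all genes tested, 6.98% were called in either direction. As splenic minus thymic log2 fold change, the values were 0.83 for *Tnfrsf4*, 0.61 for *Tnfrsf18* and 0.51 for *Tnfrsf26*. Among the ligands the difference was 0.90 for *Tnf*, which fell further in the thymus, and -0.48 for *Lta*, which fell further in the spleen. It was 0.44 for *Ripk1* (-0.48 in the thymus, -0.06 in the spleen), 0.50 for *Nfkb2* (-0.12 and 0.37) and -0.36 for *Ikbkb* (0.03 and -0.35). The calls of *Lta* (adjusted p = 0.00963) and *Ripk1* (adjusted p = 0.0097) lay just inside the threshold, and each was lost in 17 of 27 alternatives. That of *Ikbkb* (adjusted p = 0.00387) was lost without splenic WT mouse 2, and that of *Nfkb2* (adjusted p = 0.00397) without splenic CD25 KO mouse 2 or 3 or with upper-quartile scaling (adjusted p = 0.0129).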

How the results depend on the processing

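*Tnfrsf25* in the spleen, and the tissue differences of *Tnfrsf4* and *Tnfrsf26*, kept direction and call in every alternative run. Among these, the threshold of 0.05 could not lose a call. Members called lower in the thymus numbered 2 in the report, 1 after GC correction (*Tnfrsf26*), 4 at a threshold of 0.05 and 1 to 2 without 1 mouse. Members called higher in the spleen numbered 0 in the report, 3 with no filter, 2 after GC correction, 3 with DESeq2, 3 at 0.05 (with 2 lower) and 0 to 2 without 1 mouse. For the tissue difference, 3 members became 6 at 0.05 and 5 with DESeq2. Genes called lower and higher in the thymus were 508 and 539 in the report, 1858 and 2093 at 0.05, 1240 and 1490 with DESeq2, 1585 and 1296 with 1 fit for all samples, and 88 and 21 in males, where the WT mice of lowest *Tnfrsf4* are left out. Without 1 mouse they were 183 to 516 and 151 to 571. With sex as a covariate 296 were higher, and without the 2 mice of highest *Il2ra* 1232 were lower. In the spleen 620 and 1031 became 1227 and 1774 at 0.05 and 371 and 424 with 1 fit for all samples, and 410 to 605 were lower without 1 mouse. For the tissue difference, 1305 genes became 3149 at 0.05, 2188 with DESeq2, 2307 without the 2 mice of highest *Il2ra* and 817 to 1489 without 1 mouse. The cause of these shifts was not tested, beyond the looser threshold and the smaller number of samples.

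The counts gave no sign that the thymic mouse numbers pair the mice, though 5 numbers are too few to settle it. Same-numbered WT and CD25 KO mice had correlations of deviations from -0.24 to 0.14, and 1 of 5 correlated best with its own number. With the number as a block, 1 member (*Tnfrsf4*) and 158 lower and 51 higher genes were called, and with block and GC correction 0 members and 149 and 59 genes.

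Signs turned only for values near 0 that were not called. In the thymus, GC correction gave 0.085 for *Tnfrsf25*, -0.019 for *Fas* and 0.034 for *Nfkb2*, and with the block also 0.086, -0.022 and 0.039. Upper-quartile scaling gave -0.020 for splenic *Cd27*. For the tissue difference it gave -0.019 for *Tnfrsf1a* and -0.077 for *Fas*. There GC correction gave -0.047 for *Tnfrsf1a*, and *Fas* was at -0.0042 with at least 10 counts in every sample and -0.074 without the 2 mice of highest *Il2ra*. *Tnfrsf1a* in WT was at -0.0066 with sex as a covariate. Without 1 mouse the tissue difference ranged from -0.040 to 0.091 for *Fas*, -0.012 to 0.12 for *Tnfrsf1a* and -0.095 to 0.021 for *Cd27*, and the splenic values from -0.034 to 0.041 for *Cd27*, -0.014 to 0.30 for *Tnfrsf8* and -0.10 to 0.0087 for *Ripk1*. *Tnfrsf8* in the thymus rests on 15 to 89 counts per library, and the part of depth in its spread was not tested.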

Other observations

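Some genes with ample thymic reads had almost none in the spleen. Of the genes with a mean above 50 counts in the 10 thymic libraries, 70 had 8 or fewer counts summed over the 8 splenic libraries, and 66 of these are not on the Y chromosome. *Hnrnpu*, a gene used by every cell, had a thymic mean of 7537 counts and a splenic total of 1, and *Traf5* had 164 and 0. None of the 10 members is among them (0 of 70).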
